A study of Homo sapiens with 40 samples.

Results

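A set of 10 genes that mark the pluripotent state was followed through RNA sequencing of human embryonic stem cells without UTX, without UTY or without both. They were chosen by name, though with earlier results of these data known. The set holds POU5F1 (which encodes OCT4), SOX2, NANOG, LIN28A, LIN28B, L1TD1, DPPA2, DPPA4, POLR3G and TERT. All 10 were found in the count table of 60651 genes, in the tables of the 3 layers and in the H9 table of 23549 genes. The series holds 40 polyA libraries in 20 groups of 2, from the established embryonic stem cell lines SEES3 and H9.

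In SEES3, the undifferentiated groups were wild type (WT), a UTX knockout (UTXKO), the double knockout of UTX and UTY (DKO), a UTY knockout (UTYKO) and a separate control of that knockout (UTYKO ctrl). SEES3 was also sampled as endoderm (Endo), mesoderm (Meso) and ectoderm (Ecto) cultures, each with WT, XKO, YKO and DKO groups. The layer comes from the library titles only, since the cell type label reads pluripotent stem cells for all 40 libraries. H9 contributed WT and UTXKO, the latter as the sets numbered 3 and 4 in the titles. The way the knockouts were made, the number of clones in a group and the induction of the layers are not stated in the labels. The labels do not say that the 2 libraries of a group came from separate cultures, so p-values measure only the spread between these samples, which may be technical. With 2 libraries per group, groups often lie apart by chance. Statements on overlap are therefore descriptions, and the share of all genes without overlap was not computed.

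OCT4, SOX2 and NANOG are transcription factors that bind many of the same enhancers and promoters, their own included, and hold embryonic stem cells in the pluripotent state. LIN28A and LIN28B are RNA-binding proteins that block the maturation of let-7 microRNAs, and L1TD1 is an RNA-binding protein found with them in these cells. DPPA2 and DPPA4 bind chromatin as partners, POLR3G is the RNA polymerase III subunit favoured in pluripotent cells over its paralog POLR3GL, and TERT is the catalytic subunit of telomerase. The X-linked gene KDM6A encodes UTX, a histone demethylase acting on trimethylated H3 lysine 27, and its Y-linked relative encodes UTY. As stem cells differentiate, OCT4 and NANOG are in time silenced, though not at once in every germ layer, while SOX2 stays on in neural ectoderm.

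On GRCh38, POU5F1 lies at chr6:31164337-31180731 (minus strand), SOX2 at chr3:181711924-181714436 (plus), NANOG at chr12:7787794-7799141 (plus) and LIN28A at chr1:26410778-26429722 (plus). LIN28B lies at chr6:104936616-105083332 (plus), L1TD1 at chr1:62194831-62212328 (plus), POLR3G at chr5:90471748-90514553 (plus) and TERT at chr5:1253147-1295069 (minus). DPPA2, at chr3:109293788-109316517, and DPPA4, at chr3:109326141-109337572, are neighbours on the minus strand. The annotation, GENCODE v29, lists each of them as a protein-coding gene, and the counts are over whole genes.

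The promoter windows of NANOG, DPPA2 and SOX2 are shown because NANOG and DPPA2 had the largest falls of the 10 genes in undifferentiated DKO and SOX2 the largest rise. Each is the 250 bases before the start site in RefSeq (GRCh38.p14), written 5′ to 3′ on the strand of the gene. Capitals mark matches to the OCT-type motif TTTGCAT and the SOX-type motif ACAATG, searched on both strands.
NANOG: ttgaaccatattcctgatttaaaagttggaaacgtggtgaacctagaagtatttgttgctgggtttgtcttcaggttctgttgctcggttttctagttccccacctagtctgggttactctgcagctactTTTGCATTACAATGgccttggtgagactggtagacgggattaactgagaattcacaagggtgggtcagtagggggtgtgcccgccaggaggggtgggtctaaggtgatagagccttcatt
DPPA2: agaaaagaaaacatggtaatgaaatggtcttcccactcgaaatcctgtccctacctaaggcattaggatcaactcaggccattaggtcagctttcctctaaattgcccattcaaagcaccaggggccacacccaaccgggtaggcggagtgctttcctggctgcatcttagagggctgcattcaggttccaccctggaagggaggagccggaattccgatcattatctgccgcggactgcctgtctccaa
SOX2: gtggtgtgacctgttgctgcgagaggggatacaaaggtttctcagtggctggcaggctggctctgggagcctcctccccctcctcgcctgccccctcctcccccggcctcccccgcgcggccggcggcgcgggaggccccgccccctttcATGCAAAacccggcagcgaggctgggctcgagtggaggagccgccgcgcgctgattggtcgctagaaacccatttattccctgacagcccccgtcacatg
The NANOG window, chr12:7789152-7789401 on the plus strand, held TTTGCATTACAATG from -120 to -107, which matches both motifs side by side with 1 base between them. The GENCODE gene starts upstream of it, so the window lies inside the annotated gene span. The SOX2 window, chr3:181711675-181711924 on the plus strand, held ATGCAAA, the reverse complement of the OCT-type motif, from -100 to -94. The DPPA2 window, chr3:109316518-109316767 on the minus strand, held neither motif. Of 35116 promoter windows of the same length in the table, 3.94% held TTTGCAT, 9.29% held ACAATG and 2, or 0.00570%, held both motifs joined in that order with 1 base of any kind between them, on either strand. L1TD1, DPPA4 and TERT had no match, LIN28B had ACAATG in 1 of its 2 windows, and POU5F1, LIN28A and POLR3G were not in the table. A match describes these letters and not a site of binding.

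Totals of the undifferentiated count libraries ran from 5781357 to 14973722 reads over genes, while the TPM tables carry no depth. The targeted genes did not check the labels, since the files count whole genes: KDM6A stood at 98.2 and 85.8 CPM (read counts scaled to the library total) in WT and 88.2 and 106 CPM in UTXKO, and UTY at 34.5 and 24.5 CPM in UTYKO ctrl and 59.7 and 51.0 CPM in UTYKO. Knockout names below are therefore the names on the library labels. Endoderm markers summed to 34210 and 34287 TPM (the level of a transcript scaled by length and library total) in Endo WT, with 0 of the 12 listed at 0. The mesoderm list summed to between 5034 and 5503 TPM in Meso WT. The neural list, which holds no member, summed to between 3156 and 3236 TPM in Ecto WT.

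The libraries labelled DKO had less NANOG, DPPA2 and POU5F1 than WT in undifferentiated SEES3, and slightly more SOX2. LIN28A, the gene with the highest level per length among the 10, did not pass the test. Counts were tested with edgeR's quasi-likelihood test, with Benjamini-Hochberg adjustment over all genes tested and a threshold of 0.05. In DKO against WT, 2 members passed as higher and 7 as lower, in a comparison that called 46.9% of 14637 genes (23.5% higher, 23.4% lower), so a count of 9 of 10 stands against a background of nearly 1 gene in 2. The median log2 fold change was -0.32 over the members and 0.00 over all genes tested. In bulk RNA, fewer cells of a type and less RNA per cell cannot be told apart.

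**Figure D1:**
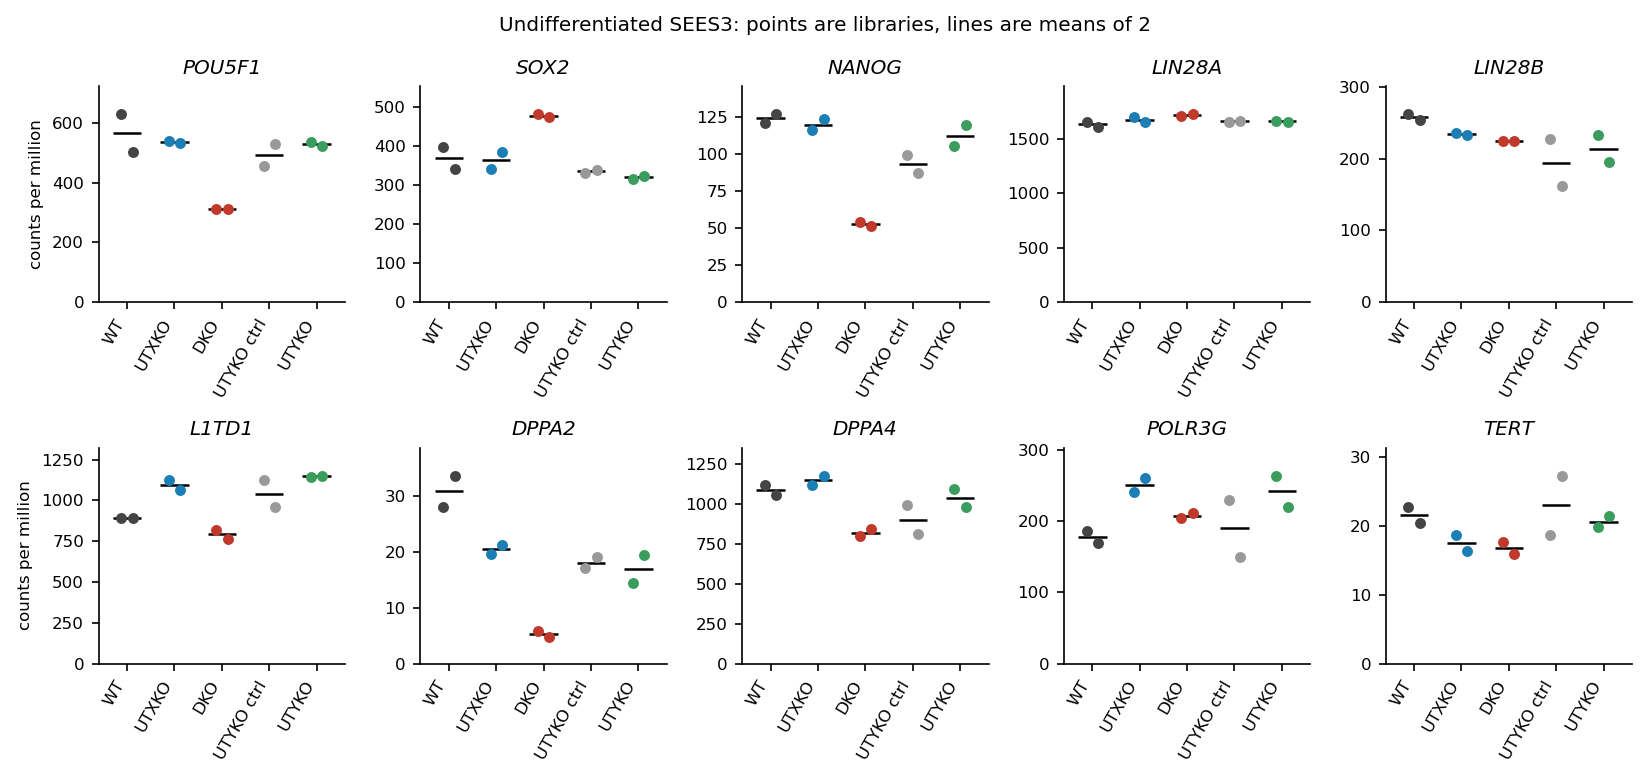
CPM of the 10 genes in each undifferentiated SEES3 library, with 1 panel per gene, an axis from 0 in each panel, points for libraries and lines for means of 2. The DKO points of POU5F1 (310 and 313 CPM), NANOG (54.0 and 51.6 CPM) and DPPA2 (5.78 and 4.83 CPM) lie under all other libraries, and those of SOX2 above them.

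Among the 3 transcription factors, NANOG was counted at 121 and 127 CPM in WT and at 54.0 and 51.6 CPM in DKO, with no overlap. Its log2 fold change was -1.29 ± 0.08 (SE; adjusted p = 6.65e-12, edgeR), or 42.5% of the WT mean. POU5F1 went from 629 and 503 CPM in WT to 310 and 313 CPM in DKO, also without overlap. That is a log2 fold change of -0.90 ± 0.07 (adjusted p = 1.25e-09, edgeR), and the WT libraries lay much farther apart than the DKO ones. SOX2 moved the other way, from 398 and 340 CPM to 481 and 473 CPM, with a log2 fold change of 0.33 ± 0.07 (adjusted p = 0.000319, edgeR).

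DPPA2 had the largest fold of the 10 genes. It was counted at 28.1 and 33.6 CPM in WT and at 5.78 and 4.83 CPM in DKO, 17.2% of the WT mean (log2 fold change -2.60 ± 0.16, adjusted p = 1.31e-11, edgeR). Its neighbour and partner DPPA4 fell far less, from 1114 and 1053 CPM to 799 and 839 CPM (log2 fold change -0.45 ± 0.06, adjusted p = 3.19e-06, edgeR). The libraries of both genes did not overlap between WT and DKO.

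The RNA-binding proteins changed little. LIN28A stood at 1653 and 1613 CPM in WT and 1710 and 1727 CPM in DKO, a log2 difference of 0.02 ± 0.06 that did not pass the test (adjusted p = 0.772, edgeR). LIN28B fell by 0.25 ± 0.06 on the log2 scale (adjusted p = 0.00236, edgeR), from 262 and 253 CPM to 224 and 225 CPM. L1TD1 was at 891 CPM in both WT libraries and at 817 and 767 CPM in DKO (log2 fold change -0.22 ± 0.06, adjusted p = 0.00666, edgeR). Thus LIN28B and L1TD1 passed at 87.1% and 88.8% of the WT mean. Both calls ended in the joint fit of 10 libraries (adjusted p = 0.187 and 0.127, edgeR), and that of L1TD1 also without DKO replicate 2.

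POLR3G rose from 186 and 170 CPM in WT to 204 and 211 CPM in DKO (log2 fold change 0.18 ± 0.06, adjusted p = 0.0292, edgeR). TERT, the member with the lowest level per length in WT, fell from 22.7 and 20.5 CPM to 17.7 and 16.001 CPM (log2 fold change -0.40 ± 0.13, adjusted p = 0.0138, edgeR). Both calls were lost with DESeq2, in the joint fit (adjusted p = 0.296 for POLR3G and 0.122 for TERT, edgeR) and without DKO replicate 2. That of POLR3G also ended without DKO replicate 1 or WT replicate 2. Neither gene's libraries overlapped between the groups.

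Set against UTYKO ctrl, the other control, in a joint fit of the 10 libraries, DKO kept calls for 6 of these 9 members. POU5F1 then had a log2 fold change of -0.71, NANOG -0.86, DPPA2 -1.81, L1TD1 -0.44, TERT -0.52 and SOX2 0.47. DPPA4 had a log2 fold change of -0.18 (adjusted p = 0.185, edgeR) and POLR3G 0.09 (adjusted p = 0.671, edgeR), so their calls ended with this control. LIN28B changed sign, to 0.17 (adjusted p = 0.324, edgeR).

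The 2 controls differed from each other in 3 members, all lower in UTYKO ctrl than in WT, in a joint fit that called 19.1% of 15191 genes (10.3% higher, 8.79% lower). DPPA2 was at 17.1 and 19.03 CPM in UTYKO ctrl, clearly under the WT libraries (log2 fold change -0.75 ± 0.16, adjusted p = 0.00281, edgeR). NANOG was at 99.2 and 87.2 CPM (-0.40 ± 0.12, adjusted p = 0.0189, edgeR) and LIN28B at 227 and 162 CPM (-0.39 ± 0.12, adjusted p = 0.0304, edgeR). The DPPA2 and NANOG levels of UTYKO ctrl still lay above both DKO libraries. Leaving out WT replicate 2 ended all 3 calls and leaving out WT replicate 1 those of NANOG and LIN28B. LIN28B also lost its call without UTYKO ctrl replicate 2.

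The libraries labelled UTXKO had more POLR3G and L1TD1 and less DPPA2 than WT. These 2 rises and 1 fall came in a comparison that called 12.5% of 13810 genes (6.2% higher, 6.31% lower). POLR3G was counted at 241 and 261 CPM, above both WT libraries (log2 fold change 0.50 ± 0.08, adjusted p = 0.000117, edgeR). L1TD1 was at 1127 and 1065 CPM (0.30 ± 0.09, adjusted p = 0.0186, edgeR) and DPPA2 at 19.6 and 21.3 CPM (-0.61 ± 0.14, adjusted p = 0.00275, edgeR). In all 3 genes, named here because they passed, the UTXKO and WT libraries did not overlap.

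POU5F1, at 538 and 532 CPM, SOX2, at 341 and 385 CPM, and NANOG, at 116 and 124 CPM, overlapped WT and did not pass in UTXKO. Their log2 fold changes were -0.07 ± 0.09, -0.02 ± 0.09 and -0.05 ± 0.09. All 3 UTXKO calls were lost in the joint fit of 10 libraries (adjusted p = 0.0523 for POLR3G, 0.0838 for L1TD1 and 0.0595 for DPPA2, edgeR). Against UTYKO ctrl, DPPA2 changed sign, to 0.15 (adjusted p = 0.643, edgeR), L1TD1 shrank to 0.06 (adjusted p = 0.751, edgeR) and POLR3G had 0.39 (adjusted p = 0.0990, edgeR), so all 3 calls ended. DPPA4 passed there instead (0.34, adjusted p = 0.0488, edgeR). With DESeq2 or without WT replicate 2 the DPPA2 call ended, and without UTXKO replicate 1 that of L1TD1.

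In UTYKO against its own control, 0 of the 10 genes passed with edgeR, 0 had an unadjusted p under 0.05 and 0 passed with DESeq2, in a comparison that called 0.606% of 14684 genes. The values ran from -0.17 for TERT to 0.35 for POLR3G on the log2 scale. The 2 UTYKO ctrl libraries lay far apart over all genes, with a chi-square per degree of freedom of 14.99 between them. In the other undifferentiated groups it was between 1.62 (DKO) and 3.68 (WT). With so wide a spread in the control, the lack of calls does not show that levels were equal. POLR3G stood at 264 and 220 CPM in UTYKO and at 230 and 150 CPM in its control, with an overlap. Its log2 difference was 0.67 without UTYKO ctrl replicate 1 (adjusted p = 7.45e-06, edgeR) and 0.079 without UTYKO ctrl replicate 2, and 3 members passed without the former. NANOG was at 105 and 120 CPM in UTYKO, above its 2 control libraries, with a log2 difference of 0.27 ± 0.16 that did not pass. Measured against WT in the joint fit, 3 members passed in UTYKO: L1TD1 (0.39), POLR3G (0.46) and DPPA2 (-0.82).

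DKO was then set directly against UTXKO, with 34.9% of 14482 genes called (18.3% higher, 16.6% lower). NANOG (-1.21 ± 0.08), DPPA2 (-1.96 ± 0.18), POU5F1 (-0.81 ± 0.08), DPPA4 (-0.51 ± 0.07), L1TD1 (-0.50 ± 0.07) and POLR3G (-0.30 ± 0.07) were lower in DKO and SOX2 was higher (0.37 ± 0.07). The POLR3G call ended in the joint fit of 10 libraries (adjusted p = 0.131, edgeR). The L1TD1 libraries lay above WT in UTXKO and under it in DKO. LIN28A, LIN28B and TERT did not pass between the 2 knockouts.

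On the log2 scale, the effect in DKO was also set beside the added effects of UTXKO and UTYKO, each taken from its own control. A value of 0 means that the double knockout equals the sum, and 12.4% of 15191 genes departed from it (6.73% higher, 5.67% lower). NANOG departed by -1.49 ± 0.17 (adjusted p = 1.62e-06, edgeR), DPPA2 by -1.90 ± 0.28 (adjusted p = 4.62e-05) and POU5F1 by -0.91 ± 0.15 (adjusted p = 0.000251). DPPA4 (-0.72 ± 0.14), L1TD1 (-0.64 ± 0.13) and POLR3G (-0.65 ± 0.20) were also lower than the sum and SOX2 was higher (0.43 ± 0.14, adjusted p = 0.0496, edgeR). This contrast counts UTYKO ctrl as the baseline of UTYKO, so the wide spread within UTYKO ctrl enters it. WT cancels out, which leaves DKO against UTXKO set beside UTYKO against UTYKO ctrl. The SOX2 call ended with DESeq2, under median-of-ratios size factors, with no filter on low counts and without any 1 of the UTXKO, DKO or UTYKO libraries, and that of POLR3G without any of these but UTYKO replicate 2.

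Genes around the members were read from lists. Of 20 partner genes of the OCT4, SOX2 and NANOG network that are not members, 12 fell and 2 rose in undifferentiated DKO. TDGF1, a NODAL co-receptor, went from 426 to 447 CPM in WT to 168 to 171 CPM in DKO, and OTX2, a homeobox factor of the epiblast, rose with a log2 fold change of 1.28 ± 0.09 (adjusted p = 2.11e-10, edgeR). ZFP42, a zinc finger marker of pluripotent cells also called REX1, was at 35.1 to 43.7 CPM in WT, at most 0.159 CPM in UTXKO and at most 0.333 CPM in DKO. The same gene was at 202 to 207 CPM in UTYKO ctrl and 259 to 264 CPM in UTYKO, so its level split the 2 controls as well.

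Of 15 genes of the LIN28 and let-7 axis, 6 rose and 2 fell in DKO. The let-7 targets MYCN and HMGA2 rose by log2 fold changes of 0.75 ± 0.08 and 0.75 ± 0.06, while LIN28A itself did not pass. Of 14 other RNA polymerase III genes, 5 rose and 1 fell, the last being POLR3D with -0.42 ± 0.08. Of 11 telomerase and telomere genes tested of 13, 2 fell, NHP2 (-0.39 ± 0.10) and POT1 (-0.25 ± 0.09), both smaller changes than that of DPPA2 or NANOG. Against these counts, 46.9% of all genes passed.

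Neural genes moved with SOX2 in undifferentiated DKO. Of 14 genes of the neural list, 11 rose and 1 fell, and their summed level was 947 to 1003 CPM in WT and 1562 to 1566 CPM in DKO. SOX1, a SOX relative of early neural cells, went from a mean of 0.969 CPM in WT to 57.6 CPM in DKO. NR2F1 was at 0 CPM in WT, so it could only come out higher and is not read as a change. Of 7 neural crest markers, 5 rose and 2 fell, yet the summed level was lower in DKO (88.1 to 92.1 CPM) than in WT (127 to 131 CPM), and of 12 endoderm markers SOX17 had 0 counts in both groups. Their part in the fall of NANOG, POU5F1 and DPPA2 was not tested.

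By likeness of log2 CPM over the 10 undifferentiated libraries, among 9931 other genes, NANOG was closest to KIAA0040 (Pearson r = 0.985), TBCA (0.983) and CD9 (0.979). POU5F1 was closest to PINK1 (0.975), GPC4 (0.974) and MAPKAP1 (0.972), and SOX2 to IFT88 (0.970), SOX9 (0.969) and C1orf21 (0.967). These values are descriptions over 10 libraries that share 5 groups, in which the DKO pair stands apart for all 3 factors.

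Wild-type levels were then set side by side across states. To compare genes and tables, counts were divided by the combined length of all annotated exons of a gene. They were then scaled to TPM over the 16255 genes that all tables share. The layer and H9 values are the deposited TPM, rescaled to the same genes, and may rest on other lengths. Ranks between genes and percentages across tables therefore depend on the length used. The tables were also normalised separately, so these levels are a description with no test. In undifferentiated SEES3 WT, LIN28A had the highest per-length level (2024 ± 25.1 TPM, SD, n = 2), above L1TD1 (1151 ± 5.93), DPPA4 (1078 ± 37.0), POU5F1 (971 ± 147) and SOX2 (729 ± 76.3). POLR3G (220 ± 13.02) and LIN28B (213 ± 3.89) followed, then NANOG (114 ± 4.25), DPPA2 (111 ± 14.7) and TERT (23.3 ± 1.59). The ranges of DPPA4 and POU5F1 overlapped, as did those of POLR3G and LIN28B and those of NANOG and DPPA2.

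**Figure D2:**
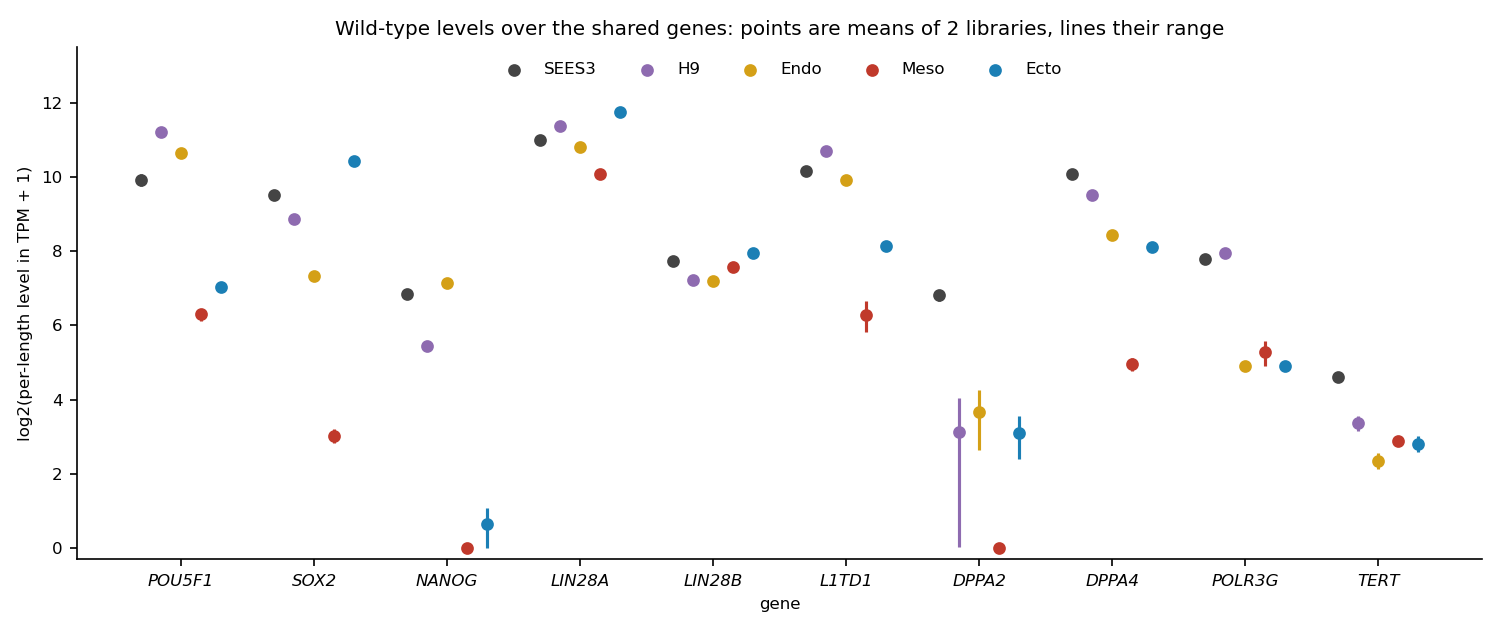
Per-length level of each gene in the 5 wild-type states (SEES3, H9, Endo, Meso and Ecto), on a log2(TPM + 1) axis, with points for means of 2 libraries and lines for their range. NANOG is near 0 in Meso and Ecto and at 141 TPM in Endo, while LIN28A ranges from 1074 TPM in Meso to 3415 TPM in Ecto.

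The 3 layer cultures differed in how far the genes had gone down in WT. In Endo WT, POU5F1 (1613 TPM) and NANOG (141 TPM) stood at 166% and 123% of the undifferentiated SEES3 level, and SOX2 (159 TPM) at 21.8%. In Meso WT, NANOG was listed at 0 in both libraries, SOX2 stood at 0.981% of the undifferentiated level and POU5F1 at 7.97%. In Ecto WT, SOX2 stood at 189%, POU5F1 at 13.47% and NANOG at 0.481%. Each of these 3 factors therefore had its lowest WT level in Meso, although for NANOG the Meso and Ecto libraries overlapped.

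LIN28A and LIN28B stayed on in all layers. LIN28A had 169% of the undifferentiated level in Ecto WT, 88.3% in Endo WT and 53.0% in Meso WT, and LIN28B between 67.6% and 116%. L1TD1 went down to 24.5% in Ecto WT and 6.72% in Meso WT, from 84.2% in Endo WT. DPPA4 stood at 32.2%, 2.78% and 25.5% in Endo, Meso and Ecto WT. POLR3G was low in every layer, at 13.1%, 17.2% and 13.1%, with overlapping libraries, and TERT ranged from 17.6% to 27.4%. H9 WT had 246% of the POU5F1 level of SEES3 WT.

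Within each layer, knockouts were tested on log2(TPM + 1) with limma (trend), over genes that reached a TPM of 1 in 2 or more of the table's 8 libraries. All 10 members passed this filter in Endo and 9 in Meso and Ecto, where NANOG was left out at 0 to 1.10 TPM. Fold changes on this scale understate those of low genes.

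**Figure D3:**
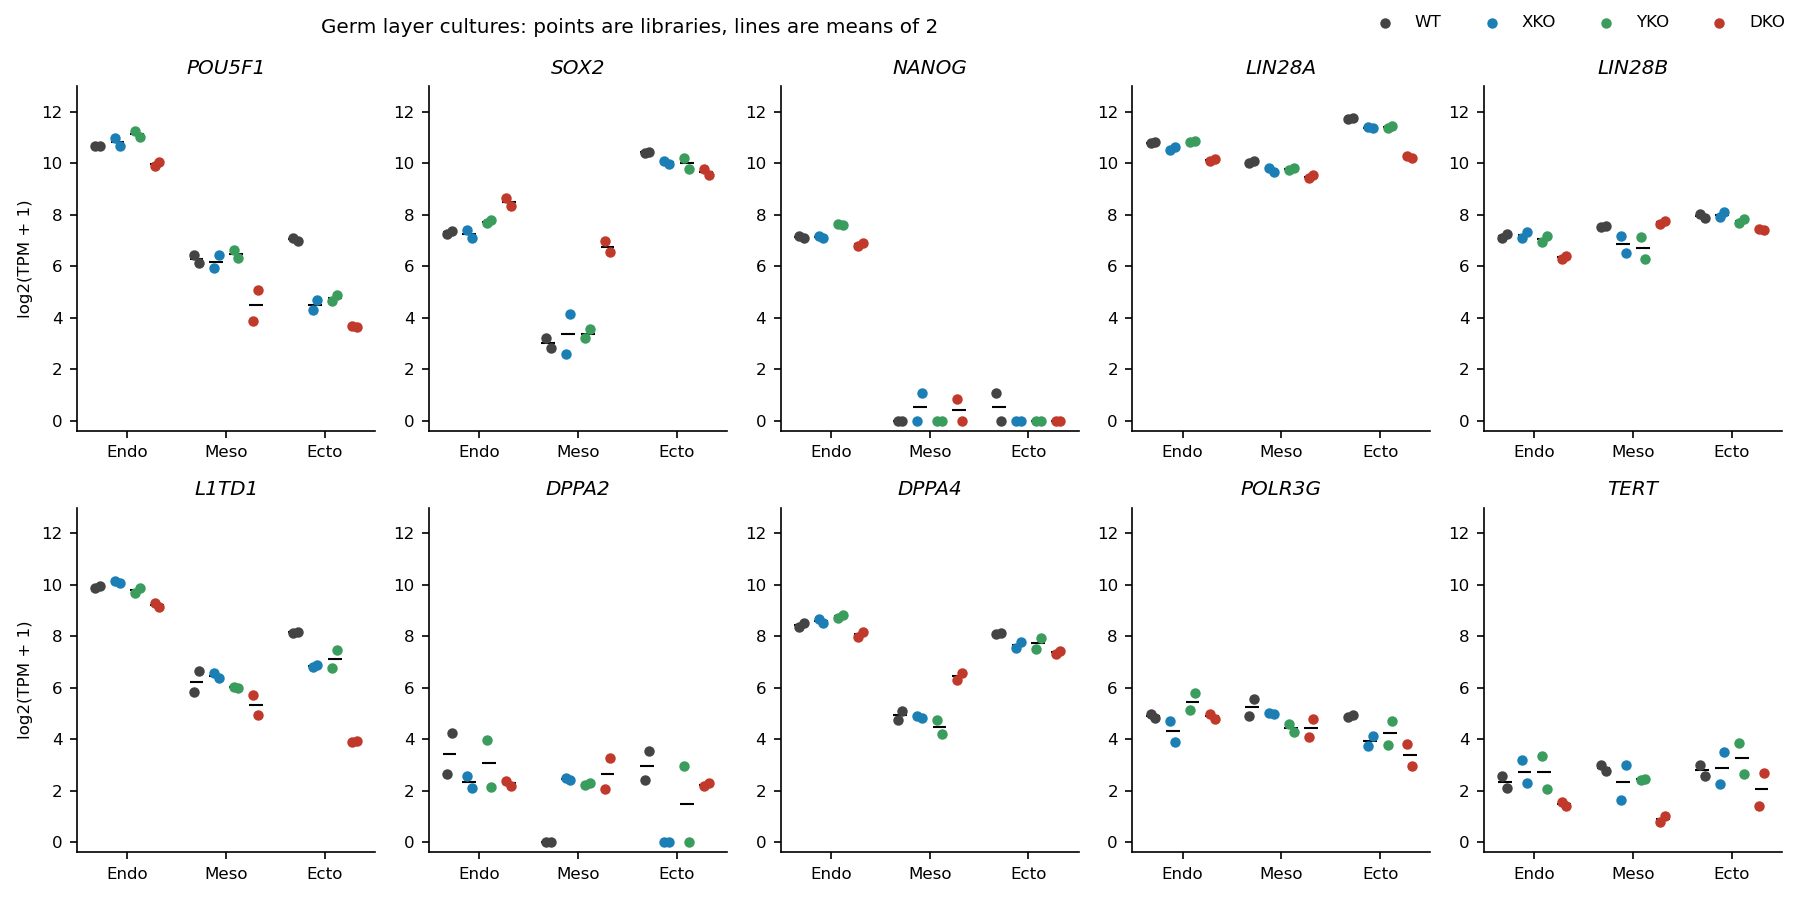
Log2(TPM + 1) of the 10 genes in the libraries of the Endo, Meso and Ecto tables, with 4 genotypes per layer, points for libraries and lines for means of 2. L1TD1 and POU5F1 of Ecto DKO (13.8 and 14.2 TPM, 11.7 and 11.3 TPM) lie far under Ecto WT, and SOX2 of Meso DKO (124 and 92.3 TPM) lies above all other Meso libraries.

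In ectoderm cultures, the libraries labelled DKO had less of 6 members, led by L1TD1 and POU5F1, and 0 passed as higher, with 8.03% of 15433 genes called (4.18% higher, 3.86% lower). L1TD1 went from 279 and 286 TPM in WT to 13.8 and 14.2 TPM in DKO, 4.96% of the WT mean (log2 fold change -4.24 ± 0.22, adjusted p = 5.65e-05, limma). XKO, at 110 and 116 TPM, and YKO, at 108 and 174 TPM, lay between them without overlap with either. Their log2 differences of -1.31 ± 0.22 (adjusted p = 0.0652) and -1.04 ± 0.22 (adjusted p = 0.148, limma) did not pass.

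POU5F1 was the single member that passed in Ecto XKO and YKO, where 0.356% and 0.0842% of genes were called (XKO 0.22% higher and 0.136% lower, YKO 0.0583% higher and 0.0259% lower). It was at 136 and 126 TPM in WT, 18.8 and 24.8 TPM in XKO, 24.4 and 28.4 TPM in YKO and 11.7 and 11.3 TPM in DKO. The log2 fold changes were -2.54 ± 0.22 (adjusted p = 0.00836), -2.27 ± 0.22 (adjusted p = 0.0224) and -3.40 ± 0.22 (adjusted p = 0.000147, limma). Each knockout was thus under WT with no overlap, DKO lowest of all at 8.80% of the WT mean. The XKO and YKO calls were lost when any 1 of their 4 libraries was left out, and that of YKO also in a fit of those 4 libraries alone.

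LIN28A fell in Ecto DKO from 3388 and 3437 TPM to 1237 and 1181 TPM, 35.4% of the WT mean (log2 fold change -1.50 ± 0.10, adjusted p = 0.000147, limma). XKO, at 2711 and 2619 TPM, and YKO, at 2663 and 2761 TPM, were under WT without passing. SOX2 fell from 1353 and 1395 TPM to 884 and 746 TPM (-0.76 ± 0.16, adjusted p = 0.03), DPPA4 from 272 and 278 TPM to 159 and 173 TPM (-0.73 ± 0.16, adjusted p = 0.0342) and LIN28B from 262 and 234 TPM to 172 and 167 TPM (-0.54 ± 0.13, adjusted p = 0.0429, limma). The calls of SOX2, DPPA4 and LIN28B were lost when any 1 of the 4 libraries was left out, and that of LIN28B also in a fit of those 4 alone. POLR3G (28.0 and 29.4 TPM in WT, 13.2 and 6.75 TPM in DKO) did not pass, nor did TERT or DPPA2.

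Compared with XKO and YKO effects added together in Ecto, where 1.53% of genes departed (0.518% higher, 1.01% lower), L1TD1 of DKO was lower by a further -1.89 ± 0.31 (adjusted p = 0.0293) and LIN28A by -0.81 ± 0.14 (adjusted p = 0.036, limma). POU5F1 lay above that sum, by 1.41 ± 0.31, without passing (adjusted p = 0.0831, limma). The L1TD1 call ended without any 1 WT, XKO or DKO library and that of LIN28A without any library but YKO a. Neural and other markers moved in the same libraries. The 14 neural genes summed to 3156 to 3236 TPM in Ecto WT and 4198 to 4778 TPM in Ecto DKO, with 5 higher and 4 lower and HES5 and SIX6 at 0 in WT. HES5 and SIX6 could therefore only come out higher and are not read as changes. The 8 fibroblast markers summed to 64.0 to 74.9 TPM in WT and 455 to 660 TPM in DKO, most of it COL3A1 at a mean of 437 TPM. Their part in the falls of L1TD1, POU5F1 and LIN28A was not tested.

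In endoderm cultures, where POU5F1 and NANOG remained high in WT, DKO had more SOX2 and less LIN28A, LIN28B, L1TD1 and POU5F1, with 12.1% of 15660 genes called (7.01% higher, 5.1% lower). SOX2 went from 152 and 165 TPM in WT to 403 and 327 TPM in DKO (log2 fold change 1.19 ± 0.15, adjusted p = 0.00267, limma). POU5F1 was at 1607 TPM in both WT libraries and at 958 and 1070 TPM in DKO (-0.67 ± 0.13, adjusted p = 0.0152, limma). The groups of both genes were apart. On the per-length scale POU5F1 of DKO stood at 105% of the undifferentiated WT level, a percentage that depends on the length used.

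The RNA-binding genes fell together in Endo DKO. LIN28A went from 1759 and 1803 TPM to 1100 and 1148 TPM (-0.66 ± 0.09, adjusted p = 0.00335), LIN28B from 137 and 151 TPM to 77.4 and 83.6 TPM (-0.83 ± 0.15, adjusted p = 0.0111) and L1TD1 from 932 and 998 TPM to 621 and 557 TPM (-0.71 ± 0.11, adjusted p = 0.00617, limma). NANOG was at 144 and 138 TPM in WT and 110 and 119 TPM in DKO, apart but not past the threshold (-0.29 ± 0.12, adjusted p = 0.148, limma). The all-gene median of this comparison was 0.12, so falls are slightly larger relative to it. Of the 5 calls, those of POU5F1 and LIN28B each ended without any 1 of 3 libraries and that of L1TD1 without DKO b, where letters only name the 2 libraries of a group.

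Neither single knockout of Endo had a member past the threshold with limma, in comparisons that called 0.0319% (XKO, 0.0192% higher and 0.0128% lower) and 0.0255% (YKO, all higher) of genes. At an unadjusted p under 0.05, XKO had 1 member (LIN28A) and YKO 4 (POU5F1, SOX2, NANOG and DPPA4). In YKO, POU5F1 was at 2436 and 2066 TPM and NANOG at 201 and 193 TPM, both above WT (log2 differences 0.48 ± 0.13 and 0.48 ± 0.12). Compared with XKO and YKO effects added together, where 3.37% of genes departed (1.93% higher, 1.44% lower), POU5F1 of DKO was lower by -1.32 ± 0.18 (adjusted p = 0.0115), DPPA4 by -0.86 ± 0.18 (adjusted p = 0.0424) and L1TD1 by -0.77 ± 0.16 (adjusted p = 0.0415, limma). The POU5F1 call ended without WT a, that of DPPA4 without any 1 of the 8 libraries and that of L1TD1 without any but YKO a.

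Markers of other cells moved in Endo DKO too. Of the 14 neural genes, 9 rose and 1 fell, and their sum was 1110 to 1227 TPM in WT and 2275 to 2277 TPM in DKO, with NR2F1, RFX4 and SIX6 at 0 in WT. Genes at 0 in WT could only come out higher and are not read as changes. Of the 12 endoderm markers, 7 fell and 0 rose, and their sum was 34210 to 34287 TPM in WT and 10199 to 10752 TPM in DKO. Their part in the SOX2, POU5F1 and LIN28A results was not tested.

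In mesoderm cultures, the libraries labelled DKO had more SOX2 and DPPA4 and less POU5F1 and LIN28A, with 10.1% of 15125 genes called (6.37% higher, 3.7% lower). The all-gene medians of the Meso table were -0.16 for XKO, -0.28 for YKO and 0.21 for DKO on the log2 scale, so values relative to those medians, after median-ratio scaling, are given beside the DKO results. SOX2 went from 8.15 and 6.05 TPM in WT to 124 and 92.3 TPM in DKO, 15.2-fold on the mean (log2 fold change 3.75 ± 0.51, adjusted p = 0.00499, limma; 3.50 after scaling). XKO, at 5.05 and 16.4 TPM, and YKO, at 8.15 and 10.7 TPM, stayed close to WT, so the DKO pair stood alone.

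DPPA4 rose from 25.96 and 33.5 TPM to 77.2 and 95.2 TPM (log2 fold change 1.51 ± 0.28, adjusted p = 0.0154, limma; 1.26 after scaling). DPPA2 was listed at 0 in both WT libraries at 4.59 and 4.27 TPM in XKO, at 3.70 and 3.88 TPM in YKO and at 3.13 and 8.60 TPM in DKO. It entered the test only through the knockouts, so it is given by its values and not read as a change. Its DKO call is still included in the totals of calls given at the end. The XKO and YKO libraries lay inside the DKO range. DPPA4 in Meso DKO stood at 8.05% of its level in undifferentiated WT.

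POU5F1 fell further in Meso DKO, from 85.2 and 68.5 TPM to 13.51 and 33.0 TPM (log2 fold change -1.80 ± 0.40, adjusted p = 0.03, limma; -2.04 after scaling), and LIN28A fell from 1037 and 1095 TPM to 694 and 736 TPM (-0.58 ± 0.13, adjusted p = 0.0306, limma; -0.83 after scaling). Both pairs lay under WT without overlap. LIN28B, at 200 and 216 TPM in DKO against 185 and 189 TPM in WT, did not pass. TERT, at 0.732 and 1.00 TPM in DKO against 6.92 and 5.78 TPM in WT, narrowly missed the threshold (adjusted p = 0.0609, limma). Calls of LIN28A and DPPA4 ended when any 1 of the 4 libraries was left out, and that of POU5F1 for 3 of the 4, whereas that of SOX2 held in each.

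Meso XKO and YKO had 0 members past the threshold with limma, at 0.0397% (0.0198% higher and 0.0198% lower) and 0.0132% (all higher) of genes called, and 2 each at an unadjusted p under 0.05 (LIN28A in XKO and LIN28B in YKO, with DPPA2, listed at 0 in WT, in both). Compared with XKO and YKO effects added together, 28.2% of genes departed in Meso (21.8% higher, 6.43% lower), with an all-gene median of 0.75. DPPA4 (2.04 ± 0.39, adjusted p = 0.0123), SOX2 (3.03 ± 0.72, adjusted p = 0.0218) and LIN28B (1.71 ± 0.43, adjusted p = 0.0257) were higher than the sum and POU5F1 lower (-1.90 ± 0.56, adjusted p = 0.041, limma). After median-ratio scaling the split changed from 3 higher and 1 lower to 1 higher and 3 lower. DPPA4 (1.27) and POU5F1 (-2.68) kept their calls, those of SOX2 (2.28) and LIN28B (0.91) ended, and L1TD1 (-1.74) passed, as did DPPA2, which is read no further since it was listed at 0 in WT. Without any 1 WT or DKO library the calls of SOX2 and LIN28B ended, the latter also without XKO b. The DPPA4 call ended without WT b or DKO b and that of POU5F1 without any library but DKO b.

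The summed levels of neural and neural crest genes were higher in Meso DKO, where SOX2 was also higher. Of 10 neural genes tested of 14, 6 rose and 0 fell, and their sum was 252 to 284 TPM in WT and 891 to 925 TPM in DKO, with SOX3, SOX21, PAX6, LHX2, HES5, NR2F1, RFX4 and SIX6 at 0 in WT. Genes at 0 in WT could enter the test only through the knockouts and only come out higher. The count of neural rises is therefore not read as a result. Of 6 neural crest genes tested of 7, 5 rose, and their sum was 23.9 to 39.6 TPM in WT and 160 to 168 TPM in DKO. The mesoderm list went from 5034 to 5503 TPM down to 3850 to 3974 TPM. Their part in the SOX2 and DPPA4 results was not tested.

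SOX2 in DKO therefore passed as higher in undifferentiated, Endo and Meso cultures and as lower in Ecto, whose WT level was the highest. DPPA4 passed as lower in undifferentiated and Ecto cultures and as higher in Meso. POU5F1 passed as lower in all 4. The differences between cultures were not tested, since the tables were normalised separately.

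**Figure D4:**
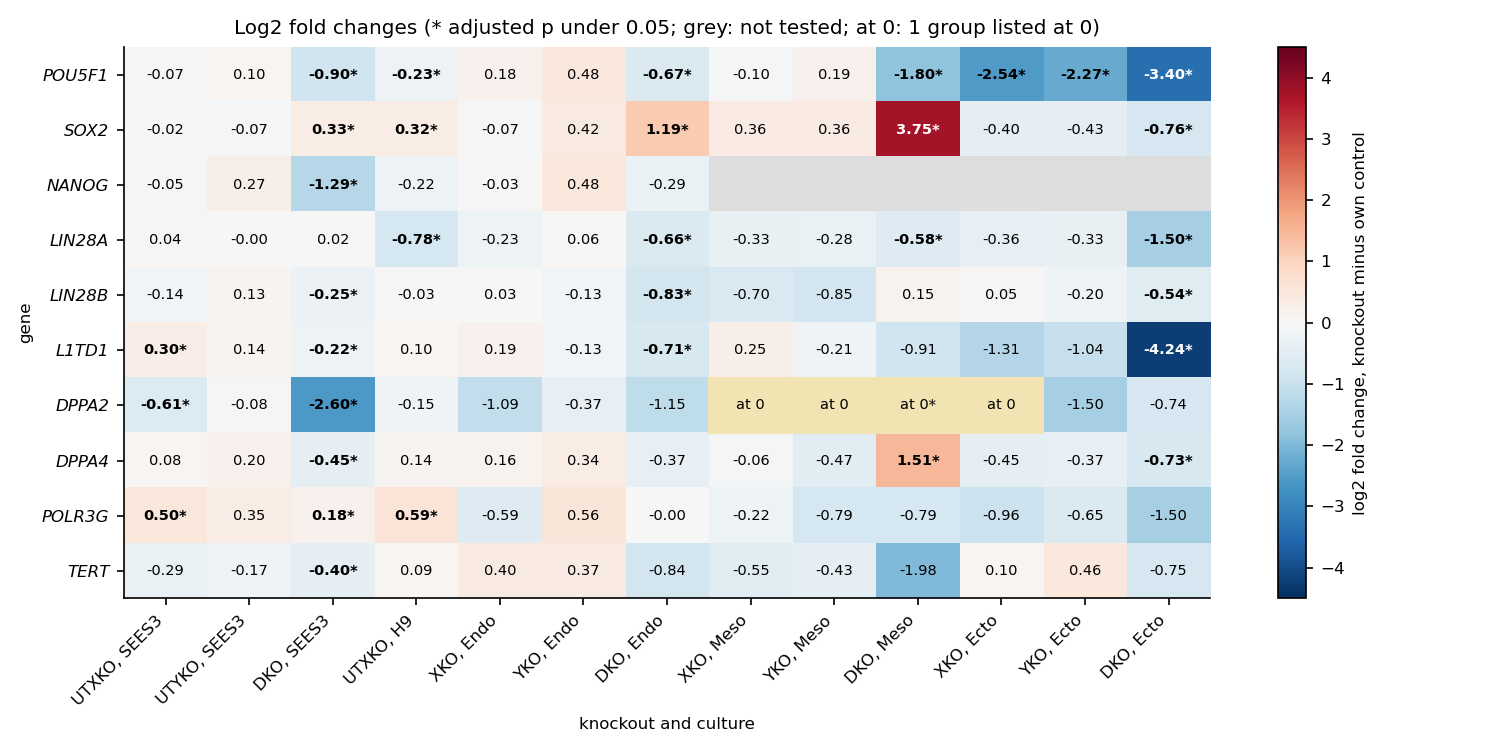
Log2 fold changes of the 10 genes (rows) in 13 comparisons of a knockout with its own control (columns), where a star marks an adjusted p under 0.05, grey marks genes not tested and "at 0" marks comparisons with 1 group listed at 0. The DKO columns hold most stars, and POU5F1 has one in each DKO column, from -0.67 in Endo to -3.40 in Ecto.

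In H9 cells, the 4 libraries labelled UTXKO had less LIN28A and POU5F1 and more POLR3G and SOX2 than WT, with 4.58% of 17148 genes called (2.81% higher, 1.77% lower). LIN28A was at 2563 and 2645 TPM in WT and at 1565, 1558, 1500 and 1448 TPM in UTXKO, with the 2 sets close together (log2 fold change -0.78 ± 0.05, adjusted p = 0.000631, limma). POLR3G was at 223 and 263 TPM in WT and at 381, 359, 380 and 343 TPM in UTXKO (0.59 ± 0.08, adjusted p = 0.0111, limma). In both genes all 4 knockout libraries lay on the same side of WT.

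SOX2 was at 448 and 471 TPM in WT and at 613, 539, 592 and 561 TPM in UTXKO (log2 fold change 0.32 ± 0.06, adjusted p = 0.0343, limma). POU5F1 was at 2408 and 2318 TPM in WT and at 2003, 2017, 1982 and 2069 TPM in UTXKO (-0.23 ± 0.04, adjusted p = 0.0236, limma). The groups were apart in both. With 1 set alone against WT, LIN28A passed in each set and POLR3G, SOX2 and POU5F1 in neither, and the SOX2 call also ended under median-ratio scaling. POLR3G lost its call without WT a, POU5F1 without any 1 library but set 4 b and SOX2 without any 1 but set 3 b. L1TD1, DPPA4, LIN28B and TERT overlapped between the groups and did not pass. LIN28A had a log2 fold change of 0.04 ± 0.09 in SEES3 UTXKO. UTY averaged 0.191 TPM in H9 WT, against 23.0, 11.3 and 25.0 TPM in Endo, Meso and Ecto WT of SEES3. The 2 lines thus differ in UTY RNA as well, and the difference between them in LIN28A was not tested.

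**Figure D5:**
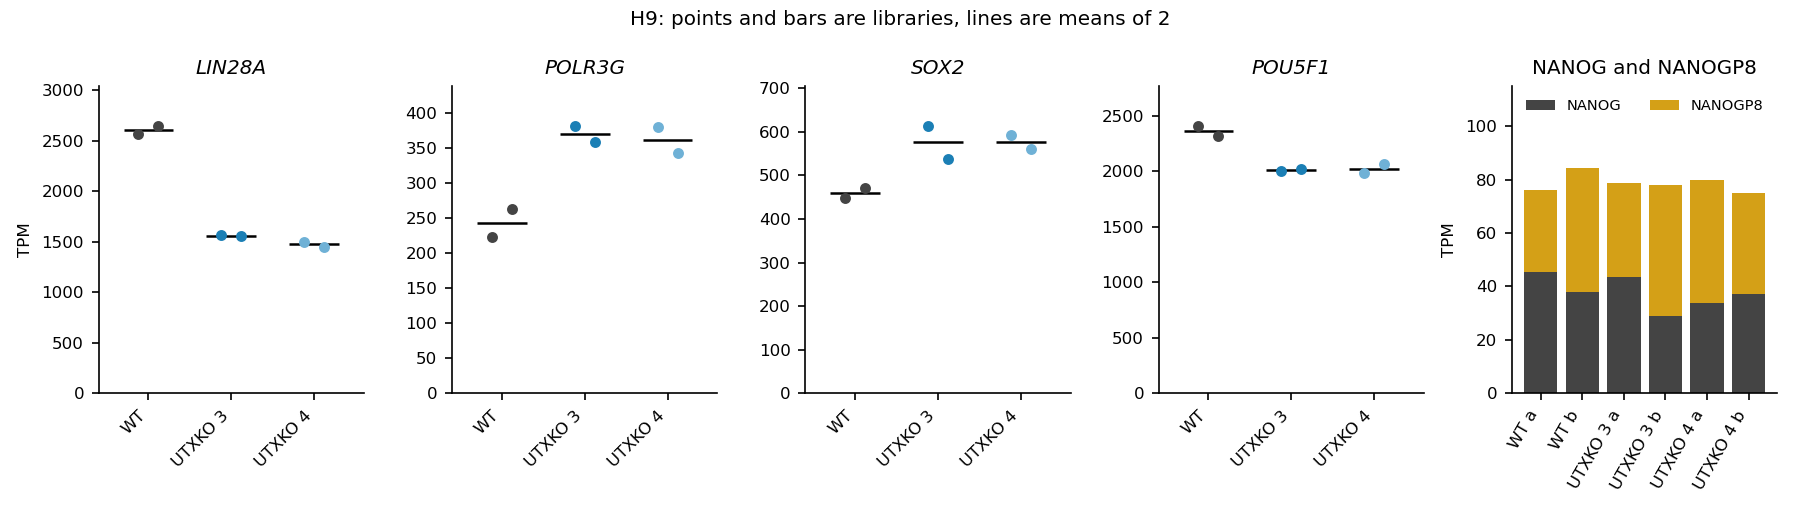
TPM of LIN28A, POLR3G, SOX2 and POU5F1 in the 6 H9 libraries, with lines for means of 2, and a stacked bar per library of NANOG and NANOGP8. The stacked bars end between 75.0 and 84.3 TPM in all 6 libraries although the NANOG share ranges from 29.1 to 45.6 TPM.

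NANOG in H9 could not be read apart from a near copy. NANOGP8, a retrocopy on chromosome 15, has a transcript of 918 bases of which 913 (99.5%) were identical to NANOG in an alignment of the annotated transcripts. The H9 table gave NANOG 29.1 to 45.6 TPM and NANOGP8 30.5 to 48.7 TPM, and the library with the least NANOG had the most NANOGP8 and the reverse. Their sum was 76.1 and 84.3 TPM in WT and 78.8, 77.8, 79.7 and 75.0 TPM in UTXKO, a much narrower range than that of either gene. This sum leaves out NANOGP1, another near copy. NANOGP1 averaged 14.6 TPM in WT and 6.76 and 8.43 TPM in UTXKO sets 3 and 4, with overlap between WT and UTXKO libraries. The narrow range is therefore that of NANOG and NANOGP8 only. NANOG alone had a log2 difference of -0.22 ± 0.17 (adjusted p = 0.522, limma). In the count tables NANOGP8 had few counts, 1.29 and 0.801 CPM in UTYKO ctrl for example, and the DKO fall of NANOG summed with NANOGP1 and NANOGP8 was -1.29 as for NANOG alone. NANOGP8 was not among the genes listed for the layers, so its bearing on the NANOG values there could not be read.

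DPPA2 in H9 WT was at 0.0171 TPM in one library and 15.2 TPM in the other, so its level there was not determined. TERT, DPPA2 and, in Meso and Ecto, NANOG were the members whose low values limited what could be read. POLR3GL, the paralog of POLR3G, was at 4.79 CPM on average in undifferentiated WT, 2.62% of the pair, and fell in UTXKO with a log2 fold change of -1.10 ± 0.34 (adjusted p = 0.0295, edgeR). That call rests on 23 and 67 reads in WT and 14 and 17 reads in UTXKO. The other control, UTYKO ctrl, was at 2.79 and 2.34 CPM and overlapped UTXKO, at 2.00 and 2.70 CPM. In Ecto POLR3GL was at 10.6 TPM in WT, 27.0% of the pair, and at 21.1 TPM in DKO, 68.0% of the pair, above POLR3G itself. POLR3GL did not appear among the Ecto DKO calls, where 0 of 14 other RNA polymerase III genes passed with limma.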

How the data were processed

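PolyA RNA of 40 libraries was sequenced with a directional kit, per the labels' protocols. RSEM, STAR and featureCounts are named for all libraries and edgeR for 10, with builds GRCh38 and hg38, per the submitters' processing notes, which give no versions used here. The authors deposited raw read counts per gene for undifferentiated SEES3 and TPM values for the layers and H9. WT counts were identical in the UTXKO and DKO tables and were used once. In the H9 table, 12 columns of other samples were not used, and no H9 value was exactly 0.

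Members and gene lists were chosen with earlier results of these data known. Named genes are the members, at most 3 called genes per list and direction with the smallest p, near copies, targets and the 3 genes most like POU5F1, SOX2 and NANOG (mean CPM of 10 or more). Counts were tested with edgeR 4.0.16 (filterByExpr, TMM) in the libraries of each table, and between controls and for departures from additivity in a joint fit of 10 libraries. Layers were fitted with limma 3.58.1 (trend) in 8 libraries each on log2(TPM + 1), and H9 in 6. R was 4.3.3 and DESeq2, an alternative, 1.42.0. P-values were Benjamini-Hochberg adjusted over all genes tested, two-sided, at a threshold of 0.05. Scripts were tested on simulated data. Alternatives were scaling, filter, pseudocount, control, fit, replicate block and each library left out. Changing the control and summing NANOG with its copies were alternatives chosen after seeing the data.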

Additional observations from a re-analysis of the deposited data

Results flagged for a closer look

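DPPA2 in the 4 H9 UTXKO libraries had a highest value of 4.28 TPM, which stood far from the other 3 by Dixon's criterion. Chance alone marks about 1 in 20 groups in this way.

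In 16 cases the DKO effect on a member departed from the added effects of the single knockouts, by the test of that departure (edgeR for counts, limma for TPM). Over all genes tested, 12.4% departed in undifferentiated SEES3, 3.37% in Endo, 28.2% in Meso and 1.53% in Ecto. Several of the member calls ended under an alternative, as given above. In undifferentiated SEES3 the departures on the log2 scale were -0.91 for POU5F1, 0.43 for SOX2, -1.49 for NANOG, -0.64 for L1TD1, -1.90 for DPPA2, -0.72 for DPPA4 and -0.65 for POLR3G. In Endo they were -1.32 for POU5F1, -0.77 for L1TD1 and -0.86 for DPPA4. In Meso they were -1.90 for POU5F1, 3.03 for SOX2, 1.71 for LIN28B and 2.04 for DPPA4, where the all-gene median was 0.75. In Ecto they were -0.81 for LIN28A and -1.89 for L1TD1.

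SOX2 moved in opposite directions between layers in DKO against WT, with log2 fold changes of 1.19 in Endo and 3.75 in Meso and -0.76 in Ecto. DPPA4 did so between Meso (1.51) and Ecto (-0.73). These differences between layers were not tested.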

How the results depend on the processing

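Of 182 member results, 60 passed the threshold, 22 of them under every alternative run, and 38 lost the call in at least 1. Depth is known only for the counts, so the precision of low TPM values is unknown. The number of members past the threshold for UTXKO was 3, against 0 in the joint fit and 1 against the UTYKO control, where DPPA4 passed and the original 3 did not. For UTYKO it went from 0 to 3 against WT, and for DKO from 9 to 5 in the joint fit. In Ecto, the fit of 4 libraries gave 2 for XKO and 0 for YKO. With a pseudocount of 0.1, departures from additivity numbered 1 in Endo and 1 in Ecto. H9 had 2 members with no filter and 1 with set 3 or set 4 alone.

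Leaving out 1 library gave 2 to 3 members for UTXKO, 0 to 3 for UTYKO, 6 to 9 for DKO and 0 to 5 for the UTYKO control against WT, and 5 to 8 departures from additivity. In Endo it gave 3 to 4 for DKO and 0 to 2 departures, and in Meso 0 to 1 for YKO, 1 to 2 for DKO and 0 to 3 departures. In Ecto it gave 0 for XKO, 0 for YKO, 3 for DKO and 0 to 2 departures, and in H9 1 to 3.

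Signs turned for DPPA2 in UTXKO against the UTYKO control (0.15), for LIN28B (-0.25) and DPPA4 (-0.047) in UTYKO against WT, and for LIN28B in DKO against the UTYKO control (0.17). Without 1 library, UTYKO values ran from -0.079 to 0.38 for LIN28B and from -0.34 to 0.11 for DPPA2, and UTYKO control values from -0.20 to 0.38 for POLR3G and from -0.20 to 0.38 for TERT. The causes were not tested.

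The labels tie same-numbered count libraries by a number only. Their deviations correlated at 0.37 between UTYKO ctrl and UTYKO, and at 0.021 to 0.089 between the other groups compared. UTYKO and its control may thus have been paired by replicate, which the labels do not state. With the replicate number as a block, the UTYKO control differed from WT in 5 members, with L1TD1 and DPPA4 added, and UTYKO in 376 genes in place of 89. The block left the other member counts at 3, 0, 9, 7 and 7. No paired analysis was possible for the layers and H9 because their columns carry no replicate numbers.

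Median-ratio scaling lowered the share of higher calls from 57.9% to 46.0% in Endo DKO, from 63.2% to 46.2% in Meso DKO and from 61.4% to 40.5% in H9.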
